A study of Mus musculus with 5 samples.

Results

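GABAergic interneurons are the inhibitory nerve cells of the cortex. They are born outside it, in the ganglionic eminences of the ventral forebrain, and migrate tangentially into the cortex, entering it from the lateral side. Dlx transcription factors act high in this lineage, Lhx6 marks the cells that come from the medial ganglionic eminence, Gad enzymes make the transmitter GABA, and somatostatin and neuropeptide Y mark subsets of the settled cells. The genes described here are 9 such genes, Gad1, Gad2, Dlx1, Dlx2, Dlx5, Sp9, Lhx6, Sst and Npy, chosen by name from the 34590 gene symbols in the count tables. All 9 were present and all 9 passed the filter on low counts, which 16229 symbols passed in all.

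RNA was sequenced from medial cortex (3 libraries) and lateral cortex (2 libraries) of mice at E14.5, all wild type, dissected and of a mixed strain background, with no treatment named. Medial libraries held between 27406370 and 36460274 reads counted to genes, against 56147129 and 66981952 in the lateral libraries, so depth differed with region. Levels are given as CPM, gene counts divided by the TMM-scaled library size. The limit that a count of 0 allows, 3 reads, was 0.0834 to 0.105 CPM in medial libraries, against 0.0456 and 0.0557 CPM in lateral libraries, for counting error only. Whether each library had its own embryo is not in the labels, and the p-values below measure only the spread between these samples, which may be technical. Transcripts of the pallium, the part of the forebrain that forms the cortex, were present in every library: Emx2, a patterning factor of the dorsal forebrain, had between 102 and 112 CPM in medial and 34.9 and 52.1 CPM in lateral libraries, and Tbr1, a factor of early-born excitatory neurons, between 56.0 and 122 CPM in medial and 206 and 279 CPM in lateral libraries. Medial library 1 stood apart in transcripts of meningeal fibroblasts: 6 listed genes summed to 294 CPM there, to 14.3 and 18.8 CPM in the other medial libraries and to 13.8 and 21.3 CPM in the lateral ones.

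All 9 interneuron genes had lower values in medial than in lateral cortex, and for each of them the highest medial library lay below the lowest lateral one. Over all genes tested, 26.7% showed that pattern in the same direction. In edgeR's quasi-likelihood test, adjusted by the Benjamini-Hochberg method over all 16229 genes, 8 of the 9 passed an adjusted p of 0.05 as lower in medial cortex and 0 as higher, against 5.1% and 4.62% of all genes tested (9.72% in either direction). The ninth, Lhx6, had an adjusted p of 0.0506. The median log2 fold change of the 9 genes, medial over lateral, was -3.35, beside 0.012 over all genes tested. Of the 9, 7 both passed and were at least 4-fold lower, as did 0.69% of all genes tested. The tissue was bulk, so fewer interneurons and less of these RNAs per interneuron cannot be told apart.

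**Figure D1:**
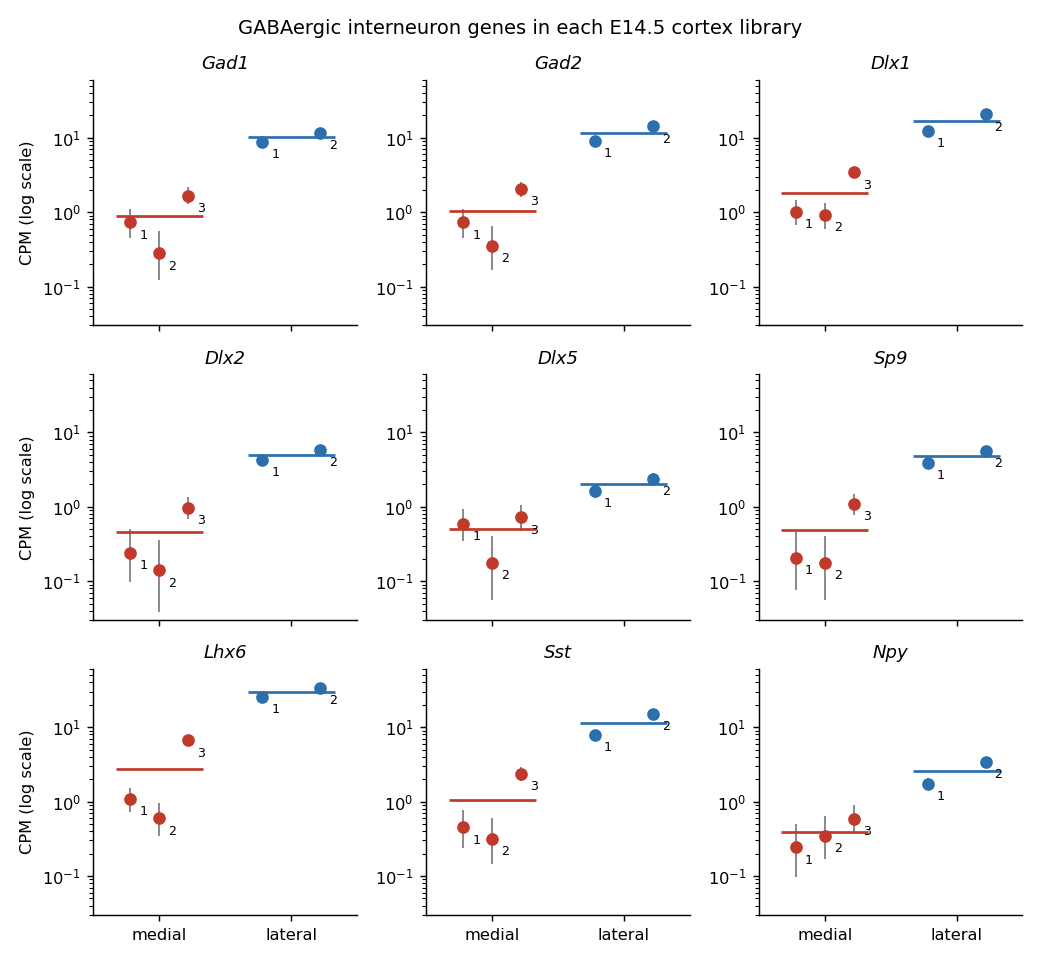
Levels of the 9 interneuron genes in each library, as CPM on a log axis, with medial libraries 1 to 3 in red left of lateral libraries 1 and 2 in blue. Points are libraries, marked with the replicate number, thin bars are 95% exact Poisson intervals for counting error, and horizontal lines are group means. In every panel all 3 medial points lie below both lateral points, and medial library 3 is the highest of the medial points.

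The sequence upstream of a gene start is where factors such as Dlx and Lhx proteins can bind, and the promoters of 4 of the genes that fell together are shown for that reason. Starts for 8 of the 9 genes, all but Dlx5, were matched in a table of RefSeq promoters (build GRCm38.p6). The 250 bases before each start were searched on both strands for 4 motifs, no 2 matches of which overlapped in these windows: TAATTA, a core recognised by many homeodomain proteins; TGACGTCA, the cyclic AMP response element; TATAAA, the TATA box; and the E-box CAGCTG. In the lines below, capitals mark the letters of a motif, each sequence runs 5′ to 3′ toward the start, and Dlx1 and Dlx2 are neighbours that face each other with 17.3 kb between their starts. The intervals are chr16:23890845-23891094 on the minus strand for Sst, chr2:70561879-70562128 on the plus strand for Gad1, chr2:71529195-71529444 on the plus strand for Dlx1 and chr2:71546755-71547004 on the minus strand for Dlx2.
Sst: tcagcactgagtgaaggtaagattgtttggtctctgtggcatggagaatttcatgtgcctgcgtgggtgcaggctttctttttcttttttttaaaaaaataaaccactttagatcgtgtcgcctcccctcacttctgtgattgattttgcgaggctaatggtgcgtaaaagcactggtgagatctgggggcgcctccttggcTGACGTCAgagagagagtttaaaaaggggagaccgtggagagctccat
Gad1: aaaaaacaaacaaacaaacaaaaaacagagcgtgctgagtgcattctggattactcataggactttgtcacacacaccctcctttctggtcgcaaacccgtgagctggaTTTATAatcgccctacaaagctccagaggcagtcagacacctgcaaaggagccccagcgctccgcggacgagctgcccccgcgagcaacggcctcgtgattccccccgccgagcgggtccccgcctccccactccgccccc
Dlx1: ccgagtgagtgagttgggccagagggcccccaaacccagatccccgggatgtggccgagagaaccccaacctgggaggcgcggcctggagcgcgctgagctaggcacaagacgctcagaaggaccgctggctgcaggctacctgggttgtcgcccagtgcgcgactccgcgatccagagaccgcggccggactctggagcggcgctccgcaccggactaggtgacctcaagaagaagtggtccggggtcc
Dlx2: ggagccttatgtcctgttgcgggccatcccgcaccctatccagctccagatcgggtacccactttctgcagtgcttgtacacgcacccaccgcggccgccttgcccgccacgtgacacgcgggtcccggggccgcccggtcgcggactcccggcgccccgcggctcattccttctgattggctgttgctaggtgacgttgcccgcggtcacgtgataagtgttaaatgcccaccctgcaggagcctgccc
The cyclic AMP response element in Sst begins 48 bases before the start, and Sst was the only 1 of the 8 genes with these letters, which 1.55% of all 32851 promoter windows of this length hold. Gad1 was the only 1 of the 8 with TATAAA, here on the opposite strand from 141 bases before the start, against 12.4% of all windows. CAGCTG occurred before 1 of the 3 starts of Lhx6 and in 13.0% of all windows. TAATTA occurred in 0 of the 8 genes and in 4.84% of all windows. A match or its absence describes the letters in this window only.

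Dlx1 and Dlx2 encode homeodomain factors that drive the interneuron programme in ventral forebrain progenitors. Dlx1 had 1.01, 0.909 and 3.42 CPM in medial libraries 1 to 3, against 12.5 and 20.6 CPM in lateral libraries 1 and 2. Its log2 fold change was -3.16 (SE 0.53; edgeR, adjusted p = 0.0322). Dlx2 had 0.243, 0.140 and 0.974 CPM in medial libraries, against 4.24 and 5.81 CPM in lateral libraries, and a log2 fold change of -3.36 (SE 0.53; edgeR, adjusted p = 0.0316). For both genes medial library 3 lay above the other medial libraries and still below both lateral ones. In medial library 2 the Dlx2 value rested on 4 reads, with a 95% exact interval for counting error from 0.0381 to 0.358 CPM. An antisense gene, Dlx1as, overlaps exons of Dlx1 in the GENCODE M21 annotation. The libraries do not mark strand, so reads in the shared stretch cannot be told apart. None of the other 8 genes shares exons with a gene on the opposite strand there, while Lhx6 overlaps exons of an unnamed gene model on its own strand.

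Dlx5, a later member of the same family, had the smallest difference of the 9. It had 0.590, 0.175 and 0.723 CPM in medial libraries, from 17, 5 and 26 reads, against 1.63 and 2.38 CPM in lateral libraries. The groups did not overlap, and the log2 fold change was -1.95 (SE 0.44; edgeR, adjusted p = 0.0485). Its call was lost in 9 of 15 alternative settings, among them limma-voom and leaving out any 1 of the 5 libraries. Sp9, a zinc-finger factor of ventral forebrain neurons, had 0.208, 0.175 and 1.08 CPM in medial libraries, against 3.88 and 5.68 CPM in lateral libraries, with a log2 fold change of -3.17 (SE 0.57; edgeR, adjusted p = 0.0347). Medial libraries 1 and 2 were close to each other for Sp9, and medial library 3 was 5.66 times their mean.

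Lhx6, the LIM-homeodomain factor that maintains the identity of interneurons from the medial ganglionic eminence, had the most reads of the 9 genes. It had 1.08, 0.595 and 6.62 CPM in medial libraries, against 25.3 and 34.0 CPM in lateral libraries. The groups did not overlap, and medial library 3 was 7.93 times the mean of medial libraries 1 and 2, the highest such ratio among the 9 genes. The log2 fold change was -3.35 (SE 0.78; edgeR, adjusted p = 0.0506), which misses the threshold. It passed without medial library 3, at -5.14 (SE 0.32, edgeR, adjusted p = 0.0222), and in 6 further alternatives, among them DESeq2 and limma-voom. Another of these, a block by replicate number, leaves medial library 3 alone in its block and is close to leaving it out (-5.13). Over the alternatives with both lateral libraries, adjusted p-values of edgeR, DESeq2 or limma ranged from 7.1e-05 to 0.128.

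Gad1 and Gad2 encode the GABA-synthesising enzymes GAD67 and GAD65. Gad1 had 0.729, 0.280 and 1.67 CPM in medial libraries, against 8.86 and 11.6 CPM in lateral libraries. Its log2 fold change was -3.44 (SE 0.48; edgeR, adjusted p = 0.0296). Gad2 had 0.729, 0.350 and 2.03 CPM in medial libraries, against 9.002 and 14.2 CPM in lateral libraries. Its log2 fold change was -3.41 (SE 0.53; edgeR, adjusted p = 0.0316). The order of the libraries was the same for both enzymes, with medial library 2 lowest and lateral library 2 highest. The ratio of Gad1 to Gad2 CPM was 1.0, 0.80 and 0.822 in medial libraries and 0.985 and 0.815 in lateral libraries, so the groups overlapped in this ratio while each enzyme was over 10-fold lower in medial cortex (10.9-fold for Gad1 and 10.6-fold for Gad2 in the fit).

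Sst encodes somatostatin and Npy neuropeptide Y, peptides of interneurons that derive mainly from the medial ganglionic eminence. Sst had 0.451, 0.315 and 2.36 CPM in medial libraries, against 7.91 and 15.025 CPM in lateral libraries, and a log2 fold change of -3.36 (SE 0.67; edgeR, adjusted p = 0.0400). Npy had 0.243, 0.350 and 0.584 CPM in medial libraries, from 7, 10 and 21 reads, against 1.72 and 3.44 CPM in lateral libraries, and a log2 fold change of -2.65 (SE 0.48; edgeR, adjusted p = 0.0356). Both peptides were higher in lateral library 2 than in lateral library 1, by 1.90 times for Sst and 2.00 times for Npy, which was the widest spread between the lateral libraries among the 9 genes. Without medial library 3 Npy no longer passed (adjusted p = 0.0570 in edgeR).

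**Figure D2:**
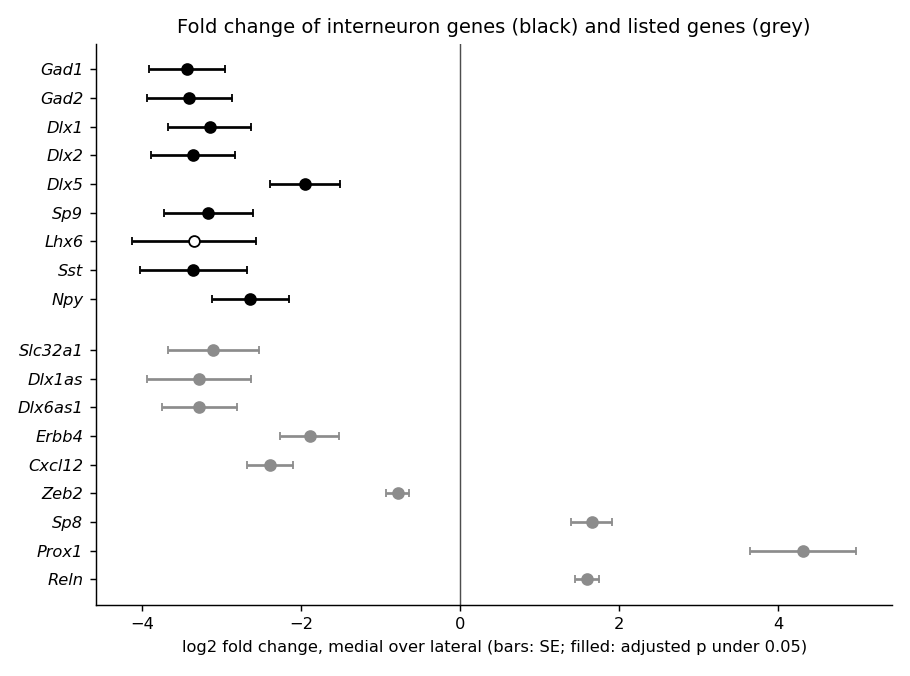
Log2 fold change, medial over lateral, with its SE from edgeR, for the 9 interneuron genes in black and for 9 genes of the other lists in grey; filled symbols passed an adjusted p of 0.05. The interneuron genes lie between -3.44 and -1.95, Slc32a1, Dlx1as and Dlx6as1 lie among them, and Prox1, Sp8 and Reln lie on the opposite side of 0.

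Per kilobase of exon, Sst was the most abundant of the 9 transcripts in lateral cortex, with 15.9 CPM per kb ± 6.98 (SD, n = 2). Exon lengths came from GENCODE M21 on GRCm38, not from the annotation behind the counts, so this order is approximate. Lhx6 followed with 8.01 CPM per kb ± 1.67 (SD, n = 2), and the lateral libraries of Sst all lay above those of Lhx6. Npy (4.55) and Dlx1 (4.02) came next and overlapped each other, as did each neighbouring pair among Gad1 (2.34), Dlx2 (2.03), Gad2 (2.02), Dlx5 (1.41) and Sp9 (1.06), all in CPM per kb. In medial library 3 Sst and Lhx6 again had the highest levels per length, 3.28 and 1.79 CPM per kb, whereas in medial library 2 Npy (0.618) lay above Sst (0.437) on this scale.

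Summed over the 9 genes, the level was 5.27, 3.29 and 19.5 CPM in medial libraries 1 to 3, against 74.96 and 113 CPM in lateral libraries 1 and 2. The mean was 9.34 CPM ± 8.83 (SD, n = 3) in medial and 93.8 CPM ± 26.7 (SD, n = 2) in lateral cortex, 10.04 times higher in lateral, and 21.9 times higher without medial library 3. Lhx6 made up 20.4%, 18.1% and 34.0% of the sum in medial libraries and 33.7% and 30.1% in lateral libraries, so medial library 3 resembled the lateral libraries in this share. Sp9 lay between 3.95% and 5.57%, Dlx2 between 4.26% and 5.66% and Gad2 between 10.4% and 13.8% of the sum over the 5 libraries, while Dlx1 lay between 16.6% and 27.7%.

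Dlx5 took up more of the sum in every medial library than in either lateral one, while the shares of Npy overlapped (4.61%, 10.6% and 3.0% in medial and 2.29% and 3.05% in lateral libraries). Dlx5 accounted for 11.2%, 5.32% and 3.71% in medial libraries, against 2.17% and 2.11% in lateral libraries. Of the reads of Dlx5 and Dlx2 together, 70.8%, 55.6% and 42.6% were from Dlx5 in medial libraries, with 95% exact binomial intervals of 48.9 to 87.4%, 21.2 to 86.3% and 30.0 to 55.9%. In lateral libraries the shares were 27.7% and 29.0%, with intervals of 23.3 to 32.5% and 24.8 to 33.5%. These shares did not overlap between the groups. The interval of medial library 1 lay above both lateral intervals, while those of medial library 2, from 9 reads, and medial library 3 overlapped them. Npy made up 35%, 52.6% and 19.8% of the reads of Npy and Sst in medial libraries, against 17.9% and 18.6% in lateral libraries, and the interval of medial library 2 (28.9 to 75.6%) lay above both lateral intervals, while those of medial library 1 (15.4 to 59.2%) and medial library 3 (12.7 to 28.7%) overlapped them. The difference in fold between genes was not tested, and these intervals cover counting error only.

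**Figure D3:**
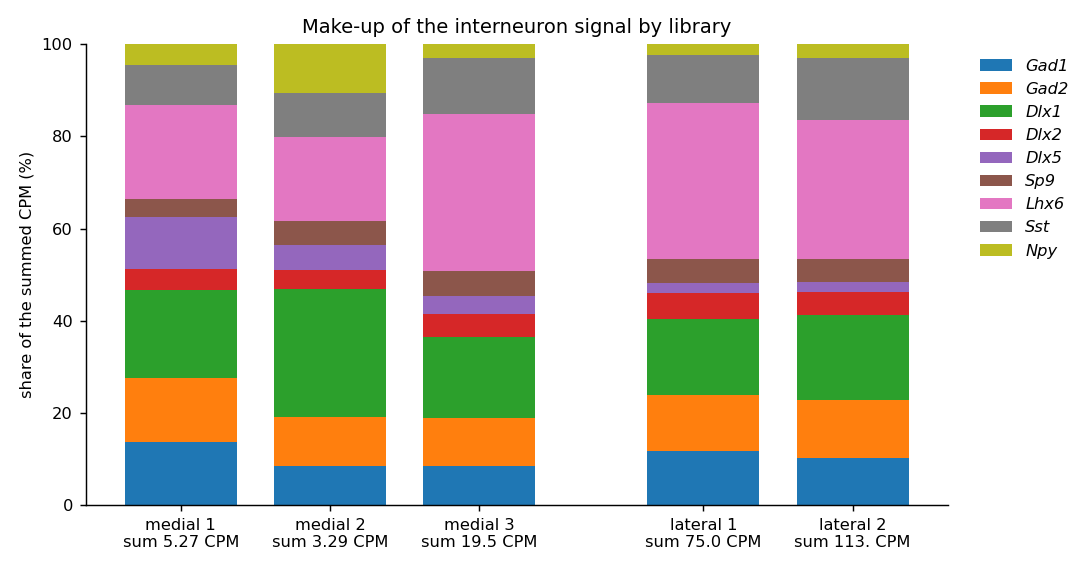
Share of each interneuron gene in the CPM summed over the 9 genes, in percent, for medial libraries 1 to 3 and lateral libraries 1 and 2, with the sum under each bar. Medial library 3 has a make-up close to that of the lateral libraries at 19.5 CPM, while Dlx5 takes 11.2% in medial library 1 and Npy 10.6% in medial library 2.

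Medial library 3 was the highest medial library for 9 of the 9 interneuron genes. That library was also the highest medial one for 74.8% of the 827 genes called lower in medial cortex and for 34.2% of all genes tested. Its level was a median of 3.77 times the mean of medial libraries 1 and 2 over the 9 genes, beside 1.18 times over the 827 called genes. Set against the lateral mean, Lhx6 was 35.5 times lower in medial libraries 1 and 2 and 4.47 times lower in medial library 3, and Gad1 was 20.3 and 6.13 times lower. Dlx5 was 5.24 and 2.77 times lower on the same terms. Summed pan-neuronal transcripts were also highest in medial library 3 among the medial libraries, at 1866 CPM against 1240 and 1648 CPM in medial libraries 1 and 2. The same order held for the list of pallial excitatory neurons and progenitors, at 2094 CPM against 1384 and 1789 CPM. It also held for the lists of striatal neurons (447 against 203 and 349 CPM) and Cajal-Retzius cells (688 against 594 and 616 CPM). Among other lists, those for handling of GABA and for the caudal ganglionic eminence lineage were highest in medial library 1. The part of these transcripts in the result was not tested.

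**Figure D4:**
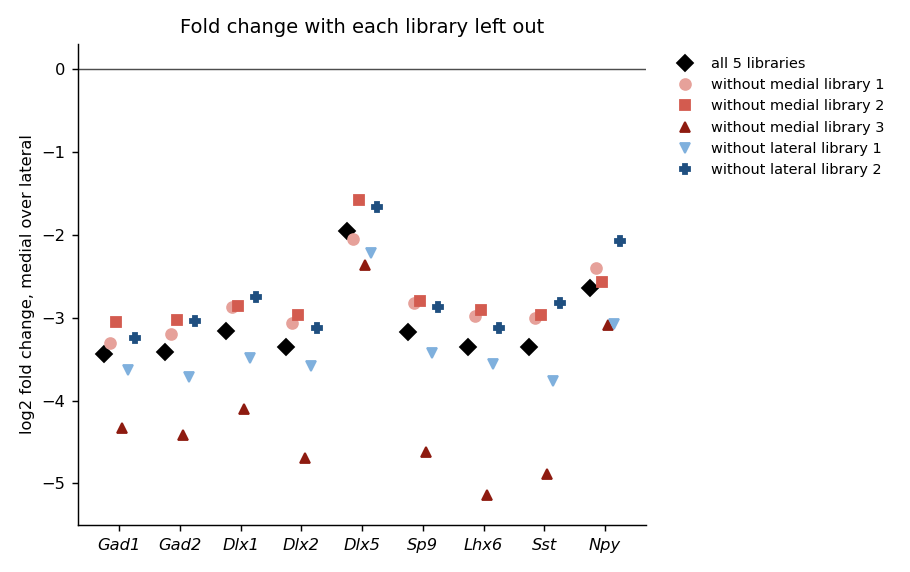
Log2 fold change, medial over lateral, of the 9 interneuron genes in all 5 libraries (black diamonds) and with each library left out in turn (other symbols). Every value stays below 0, and leaving out medial library 3 gives the lowest value for every gene, down to -5.14 for Lhx6.

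The calls depended on single libraries. Without medial library 2, lateral library 1 or lateral library 2, 0 of the 9 genes passed in edgeR, and over all genes tested 0, 18 and 0 passed in these fits. At an unadjusted p under 0.05 stood 9 of 9 in each, beside 4035 of 16496, 4050 of 16616 and 2456 of 16544 over all genes. Without medial library 1, and without medial library 3, 7 of the 9 passed. DESeq2 on all libraries called 9 of 9 lower, against 11% of all genes tested (1790 of 16229). The log2 fold change was negative for all 9 genes in all 15 alternatives.

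Relatives of the Dlx genes outside the 9 were followed in a list of Dlx genes, antisense partners and upstream ventral factors. Of the 12 reported here 5 could be tested, and 2 were lower in medial cortex and 0 higher. A median is not given, since the list is reported in part. Both that fell are noncoding RNAs of the Dlx clusters. Dlx6as1, transcribed across the Dlx5 and Dlx6 locus, had 1.15, 1.01 and 3.31 CPM in medial libraries, against 14.6 and 22.3 CPM in lateral libraries (log2 fold change -3.29, SE 0.47; edgeR, adjusted p = 0.0296). Dlx1as had 0.312, 0.455 and 2.67 CPM in medial libraries, against 9.97 and 14.04 CPM in lateral libraries (log2 fold change -3.29, SE 0.66; edgeR, adjusted p = 0.0401), and its log2 fold change was -4.96 without medial library 3. The ratio of Dlx6as1 to Dlx5 was 1.94, 5.80 and 4.58 in medial libraries, against 8.95 and 9.38 in lateral libraries. Dlx6, the partner of Dlx5 in its cluster, had 0.278, 0.0699 and 0.139 CPM in medial libraries, against 0.395 and 0.613 CPM in lateral libraries. The groups did not overlap, and the log2 fold change of -1.61 did not pass (SE 0.51; edgeR, adjusted p = 0.0909).

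Some markers of the ventral forebrain itself were near 0 in both regions, while others, given with the striatal list below, were not. Gsx1, Gsx2, Nkx6-2, Six3, Vax1, Lhx8 and Isl1, which mark progenitors and early neurons of the ganglionic eminences and septum and are named here after their values were seen, stayed at or under 0.210 CPM in every library. Their sum lay between 0.243 and 0.455 CPM in medial libraries and between 0.289 and 0.539 CPM in lateral libraries, ranges that overlapped. Nkx2-1, the factor that specifies the medial ganglionic eminence and is switched off in cells migrating to the cortex, was between 0.243 and 0.555 CPM over all 5 libraries. Olig2, a factor of ventral progenitors and of oligodendrocyte precursors, had 16.2, 0.629 and 1.22 CPM in medial libraries, against 1.82 and 1.39 CPM in lateral libraries.

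In the list for handling of GABA, 8 of 9 genes could be tested and 3 were lower in medial cortex, 0 higher, with a median log2 fold change of -0.44 (-0.81 without medial library 1, -0.67 without lateral library 1 and -0.26 without lateral library 2). Slc32a1, the transporter that loads GABA into synaptic vesicles, had 0.208, 0.140 and 0.974 CPM in medial libraries, against 3.28 and 4.996 CPM in lateral libraries (log2 fold change -3.11, SE 0.57; edgeR, adjusted p = 0.0356). The chloride exporter gene Slc12a5 (-1.08) and the GABA-degrading enzyme gene Abat (-0.74) also fell. The list's most abundant genes serve other cells too: the amino acid transporter Slc38a1 had a log2 fold change of 0.076 (edgeR, adjusted p = 0.563), the chloride importer Slc12a2 0.36 (edgeR, adjusted p = 0.205) and Aldh5a1, of GABA breakdown, 0.75 (edgeR, adjusted p = 0.111). Without medial library 3, 1 of the 8 was lower in medial cortex. Without medial library 1, 4 of the 8 were lower and 1, Aldh5a1, was higher (0.44; edgeR, adjusted p = 0.0298).

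Further genes of the medial ganglionic eminence lineage were followed in a list of their own. Of 13 listed, 11 could be tested, 1 was lower in medial cortex and 0 higher, with a median log2 fold change of -0.66. Without medial library 1, 2 were lower, beside 1137 of all 16392 genes tested. DESeq2 called 5 lower, beside 1790 of 16229. With libraries blocked by a label within the deposited names, 9 were lower, Satb1 and Nos1 among them, beside 2727 of 16229 genes. Without a block, the call of edgeR on all libraries was Zeb2, at -0.79 (SE 0.14, edgeR, adjusted p = 0.0354). Zeb2 is a zinc-finger factor needed for interneuron fate that pallial neurons also express. Sox6 (0.24, adjusted p = 0.154), Satb1 (-0.31, adjusted p = 0.141) and Nos1, the neuronal nitric oxide synthase (-1.35, adjusted p = 0.136), did not pass in that edgeR fit. Over the 5 libraries Sox6 had 148 to 199 CPM and Satb1 68.1 to 95.4 CPM, above Lhx6 in each. Less abundant genes, named after their values were seen, did not pass there either. They were Maf (-1.44, adjusted p = 0.115), Calb1 (-1.42, adjusted p = 0.0596), Elfn1 (-1.42, adjusted p = 0.0646) and Chodl (0.21, adjusted p = 0.890). Pvalb, which is switched on after birth and is named after its values were seen, had at most 1 read in any library.

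The list for the caudal ganglionic eminence lineage held calls of the opposite sign. Of 11 listed, 10 could be tested, 4 were higher in medial cortex and 0 lower in edgeR, with a median log2 fold change of 0.22. DESeq2 called 5 higher and 2 lower, beside 1737 and 1790 of 16229 genes tested. Limma-voom called 4 higher and 1 lower, beside 767 and 848. With the block by the label within the deposited names, 5 were higher and 3 lower, beside 2634 and 2727. The zinc-finger factor Sp8, also a gene of medial and rostral cortex, had 37.7, 49.9 and 38.9 CPM in medial libraries, against 16.8 and 9.92 CPM in lateral libraries (log2 fold change 1.66, SE 0.26; edgeR, adjusted p = 0.0316). Prox1, which also marks the developing dentate gyrus, was at 4.31 (SE 0.67; edgeR, adjusted p = 0.0316), Calb2, which also marks Cajal-Retzius cells, at 2.68, and Npas3, also expressed by pallial progenitors, at 0.43. Nr2f2, an orphan receptor that is not confined to this lineage, had a log2 fold change of 1.67 and did not pass (edgeR, adjusted p = 0.0568). Its relative Nr2f1 had one of -0.76 (edgeR, adjusted p = 0.236). Npas1 (-2.54, adjusted p = 0.0562) and Adarb2 (-2.18, adjusted p = 0.0523), named after their values were seen, were at negative values in edgeR without passing. The groups did not overlap for either of them. Without medial library 1, 5 of the 10 were higher and 1, Nr2f1, was lower in medial cortex (-1.18; edgeR, adjusted p = 0.0452), and without medial library 3, 2 were higher and 1 lower, with a median of 0.091. Vip, likewise named after its values were seen, had at most 1 read in any library.

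Of 15 listed receptors and cues of interneuron migration, all tested, 6 were lower in medial cortex, 1 was higher and 8 did not pass, with a median log2 fold change of -0.81 and 5 values above 0. Cxcl12, the chemokine that holds interneurons in their migratory streams and is made by meninges and intermediate progenitors, had 2.71, 3.01 and 4.59 CPM in medial libraries, against 14.52 and 22.2 CPM in lateral libraries (log2 fold change -2.40, SE 0.29; edgeR, adjusted p = 0.0272). Erbb4, the neuregulin receptor of migrating interneurons, had 18.0, 7.17 and 16.0 CPM in medial libraries, against 43.0 and 59.5 CPM in lateral libraries (log2 fold change -1.90, SE 0.37; edgeR, adjusted p = 0.0383). The groups did not overlap for either gene. The guidance receptors Robo2 (-1.69) and Nrp1 (-1.07), the receptor kinase Kit (-1.36) and the microtubule protein gene Dcx (-0.92), which excitatory neurons express too, also fell, while the semaphorin receptor Nrp2 rose (1.35, SE 0.14; edgeR, adjusted p = 0.0253). Robo1 (-0.81, adjusted p = 0.137) and Epha4 (0.24, adjusted p = 0.251) did not pass in edgeR. Cxcr4, the receptor for Cxcl12, is named after its values were seen: it had 112.84, 40.7 and 40.7 CPM in medial libraries, against 17.7 and 23.8 CPM in lateral libraries, without overlap. Its log2 fold change of 1.64 did not pass (SE 0.51; edgeR, adjusted p = 0.0892), and without medial library 1 it was 0.97 and passed (edgeR, adjusted p = 0.0237). Without medial library 1 the counts were 7 lower and 3 higher, and without medial library 3 they were 4 lower and 1 higher.

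Markers of other cell types differed between the regions as well. Of the pan-neuronal list, 8 genes could be tested and 6 fell (2 without medial library 3), with a median log2 fold change of -0.90 and a summed level of 1240 to 1866 CPM in medial and 2478 to 3136 CPM in lateral libraries. Syt1, a vesicle protein gene, had a log2 fold change of -1.57. Per 1000 CPM of these pan-neuronal transcripts, the 9 interneuron genes came to 4.26, 2.00 and 10.4 CPM in medial libraries, against 30.3 and 35.9 CPM in lateral libraries, 5.95 times higher in lateral on average and with no overlap between the groups. Of 11 genes of pallial excitatory neurons and progenitors, 2, Neurod2 (-1.56) and Tbr1 (-1.41), were lower in medial cortex and 1, Emx2 (1.32), was higher (4 and 2 without medial library 1, 0 and 0 without medial library 3); their sum was 1384 to 2094 CPM in medial and 2661 to 2870 CPM in lateral libraries. Per 1000 CPM of that list the interneuron sum was 3.81, 1.84 and 9.30 CPM in medial libraries, against 28.2 and 39.3 CPM in lateral libraries.

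Striatal neurons share Gad and Dlx transcripts with interneurons. Of 11 tested genes in their list, reported in part, 1 was lower in medial cortex and 0 were higher in edgeR. The lower gene was the dopamine receptor gene Drd1a (-2.52, SE 0.58, edgeR, adjusted p = 0.04998), a call lost with DESeq2's size factors. DESeq2 called 3 lower and 3 higher, beside 1790 and 1737 of 16229 genes tested. The median of those 11 was -0.43, and -0.16 without medial library 1. Its reported genes summed to between 203 and 447 CPM in medial libraries and to 674 and 710 CPM in lateral libraries, and the largest part was Meis2, a homeobox gene of several forebrain territories, with 136 to 323 CPM in medial and 532 and 543 CPM in lateral libraries (log2 fold change -1.22; edgeR, adjusted p = 0.0638). Named after their values were seen, Ppp1r1b, the striatal signalling protein DARPP-32, had 2.19, 8.18 and 15.3 CPM in medial libraries, against 27.2 and 38.7 CPM in lateral libraries, and Penk, the enkephalin precursor, had 0.139, 0.245 and 0.223 CPM, against 0.547 and 1.11 CPM. The groups did not overlap for either gene, and neither passed, with log2 fold changes of -1.93 and -1.99 (edgeR, adjusted p = 0.0991 and 0.0595). Without medial library 1 Ppp1r1b passed at -1.48 (edgeR, adjusted p = 0.0389). Other genes of this list, also named after their values were seen, were at positive log2 fold changes without passing in edgeR. They were Zfp503 (2.62, adjusted p = 0.0767), Ikzf1 (1.22, adjusted p = 0.0651), Rarb (1.17, adjusted p = 0.327) and Ebf1 (0.80, adjusted p = 0.0566). Among these, the groups overlapped for Rarb alone. Isl1 and Drd2 are named after their values were seen as well. Isl1, which defines the striatonigral lineage, was between 0.0694 and 0.175 CPM and the dopamine receptor gene Drd2 between 0.0350 and 0.243 CPM over all 5 libraries. Of the list for olfactory bulb interneuron precursors, 1 of 5 tested genes, Sp8, was higher in medial cortex and 0 lower. All 9 genes of Cajal-Retzius cells, an early reelin-secreting cell type that is not GABAergic, were higher in medial cortex, with a summed level of 594 to 688 CPM in medial and 182 and 226 CPM in lateral libraries, and Reln at a log2 fold change of 1.59. Of the thalamic list 2 of 7 tested, Lhx2 and Lhx9, were higher (0 without medial library 3) and 0 lower. Lhx2 had 502 to 559 CPM in medial libraries, against 303 and 209 CPM in lateral libraries 1 and 2. Others of that list, named after their values were seen, did not follow. Gbx2 had at most 0.0694 CPM, and Foxd1 (0.22, adjusted p = 0.854) and Gata2 (0.031, adjusted p = 0.975) did not pass in edgeR. Of the choroid plexus list 1 of 3, Otx2, was higher and 0 lower. Of the endothelial list 1 of 6, Cdh5, was lower and 0 higher (3 lower without medial library 1 and 0 without medial library 3). Of the meningeal and microglial lists, 0 of 5 tested genes each passed in edgeR, with 1 and 0 at an unadjusted p under 0.05, and DESeq2 called 1 meningeal gene higher and 0 microglial ones. The part of these cell types in the interneuron result was not tested.

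The genes whose pattern over the 5 libraries was nearest to that of the 9 interneuron genes were found by the root mean square distance between centred log2 CPM profiles, among 13798 other genes with a mean of at least 1 CPM. The median distance of those genes was 1.97, while the 9 genes themselves lay between 0.0709 (Dlx2) and 0.909 (Dlx5) from their own median profile. Nearest was Nxph1, which encodes the secreted neurexin ligand neurexophilin 1, at a distance of 0.100. It had 0.833, 0.560 and 3.14 CPM in medial libraries, against 11.7 and 16.0 CPM in lateral libraries. Next came Slc32a1 (0.130), the POU-domain factor Pou3f1 (0.197), Dlx6as1 (0.251), the urea transporter Slc14a1 (0.332), the neurexophilin gene Nxph2 (0.371), Hs3st3b1, a heparan sulfate sulfotransferase (0.394), and Dlx1as (0.440), with 1 unnamed gene model passed over. The profile is largely the difference between the regions, so each of these 8 genes was chosen by the same contrast and their log2 fold changes, from -3.87 for Slc14a1 to -3.11 for Slc32a1, are a description. In Pou3f1, which marks upper-layer excitatory neurons as well, medial library 3 was again the highest medial library, with 3.76 CPM against 1.39 and 1.05 CPM in medial libraries 1 and 2, and the lateral libraries had 20.6 and 27.7 CPM.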

How the data were processed

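Tissue RNA of 3 medial and 2 lateral cortex samples was sequenced as polyadenylated, unstranded libraries, per the labels' protocols. The authors deposited raw read counts per gene symbol, not normalised. Build mm9 and the programs STAR, HTSeq and BWA are named, per the submitters' processing notes, with no role or version. The annotation used for counting is not given in the sources used here. The 5 HTSeq classes of unassigned reads (23.1% to 28.7% of each file) entered neither library sizes nor tests.

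Genes were kept by filterByExpr (count of 10, total of 15), scaled by TMM and tested by edgeR 4.0.16 in R 4.3.3 with glmQLFit (legacy=FALSE) and glmQLFTest, with region as the model's sole factor (residual degrees of freedom: 3). Each SE was taken as |log2 fold change| / sqrt(F). The test was first tried on simulated data. Fold changes are medial over lateral. Alternatives used DESeq2 1.42.0 and limma 3.58.1 (voom), among others. Replicate numbers do not pair the samples by any label.

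The 9 genes, the 15 other lists, the tests and the alternatives were chosen with earlier results of these data known. Named genes are the 9, genes of each list that passed, up to 3 others of each list with the highest mean, and the 8 of nearest pattern; further ones are marked in the text. Unnamed gene models were not named. Map2 is not analysed here, and some listed genes are not reported here and were left out of the list counts and sums.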

Additional observations from a re-analysis of the deposited data

How the results depend on the processing

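The direction of all 9 interneuron genes held in all 15 alternatives, with adjusted p-values of edgeR, DESeq2 or limma from 5.4e-07 to 0.295. Of the 9, between 6 and 9 passed with other scalings, filters, depths, tools and blocks, and between 0 and 7 with 1 library left out. Each blocked fit leaves 1 medial library alone in its block, so its fold changes are no separate check from leaving that library out. Calls over all genes did differ, with 1076 under the block by replicate number against 490 without medial library 3. Of the 8 that passed on all libraries, between 6 and 8 passed again with those other settings and between 0 and 7 with 1 library left out; where a lateral library was left out, the lone one was assumed to vary like the medial ones. Leaving out libraries moved the calls over all genes, 1577 in edgeR, to between 0 and 2164, those higher in medial cortex to between 0 and 1027 and those lower to between 0 and 1137. It moved the calls among the other listed genes, 21 lower and 17 higher, to between 0 and 31 lower and between 0 and 24 higher. The fits with 0 calls, without medial library 2 and without lateral library 2, had 4035 and 2456 genes at an unadjusted p under 0.05. DESeq2 called 3527 genes, 1737 higher and 1790 lower in medial cortex, with 42 listed genes lower. Without a low-count filter 496 genes were higher. With a replicate block by the numbers in the titles 454 genes were higher and 622 lower, and 11 listed genes were higher. Dlx5 lost its call there while Lhx6 passed. Medial library 3 stands alone in that block, so the fold changes of the 9 genes are close to those without it. Deviations from the group means correlated at 0.0267 and -0.385 between libraries of the same number. The deviations of the 2 lateral libraries mirror each other. Neither these correlations nor those given next can therefore decide which samples pair. When libraries were blocked by a label within the deposited names, which joins medial library 2 with lateral library 1 and medial library 3 with lateral library 2 (correlations of 0.385 and 0.376), 5361 genes were called, 2634 higher and 2727 lower, with 53 listed genes lower and 33 higher, 9 of the 9 interneuron genes lower and 9 of the 11 tested genes of the medial eminence list lower, Satb1 and Nos1 among them (edgeR, adjusted p = 0.0452 and 9.7e-06). Olig2 had values from -0.76 (without medial library 1) to 2.40 (without medial library 2) with 1 library left out, and -0.76 with that second block. In that second block medial library 1 stands alone, so it carries no information on the difference between regions. The median log2 fold change of the 9 interneuron genes was -3.13 there, beside -2.98 without medial library 1. The calls over all genes differed, 5361 against 2164. The cause of the other shifts was not tested. Over 53 of the genes reported by value, 612 of 792 alternative values kept direction and call, 143 lost the call, 35 gained it and 2 changed sign. Genes named after their values were seen are not among the 53, apart from Cxcr4, Ppp1r1b and Penk. In medial library 2, 7 of the 9 genes had 10 or fewer reads, which widens the counting intervals of those values.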
